A study of Mus musculus with 20 samples.

Results

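The genes described here encode the proteins of the cytosolic ribosome. They were taken by symbol: every gene named Rpl or Rps with a number, plus Rpsa, Rplp0, Rplp1 and Rplp2, with the Rps6 kinases and the pseudogenes left out. This gave 82 genes among the 20188 listed for tumors and 84 among the 50667 Ensembl genes listed for cultured cells, 85 genes in either and 81 in both. Of these, 81 in tumors and 81 in cells had a mean of at least 0.1 and entered the tests. The scramble and sh4 groups both consisted of Mvt1 cells, a mouse mammary carcinoma line derived from a tumor driven by Myc and Vegf, transduced with a lentiviral shRNA and held under puromycin. The control shRNA was a scrambled sequence and sh4 is 1 shRNA against Rnaseh2c, a subunit of RNase H2, so an effect of the target and one of this hairpin cannot be told apart. Tumors were 3 per group, 1 from each of 3 experiments in which the cells were placed in the mammary fat pad of virgin FVB females about 6 weeks old, and the labels give day 30 for them. Cells were 3 plates per group. Tumor values are RPKM of mRNA libraries and cell values are FPKM of total RNA libraries, both scaled to gene length and to the reads of the library, and the tables were made separately. Nothing states that the plates were separate cultures, so p-values in cells measure the spread between plates only.

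A ribosome holds a small subunit, which reads the mRNA, and a large subunit, which joins amino acids, and each protein is needed in about equal amounts. The mRNAs of these proteins start with a run of pyrimidines after a C at the cap, the 5′ terminal oligopyrimidine tract, through which mTOR and the protein Larp1 govern how far they are translated together. Myc raises the transcription of many of them, and dividing tumor cells are rich in them. Many introns of the family hold small nucleolar RNAs (snoRNAs), which guide the modification of ribosomal RNA, and reverse-transcribed copies of these genes are scattered over the mouse genome.

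The pyrimidine run is a feature that the choice by symbol did not use, and it is shown for the genes that the comparisons below turn on. Each line gives bases around the RefSeq start in GRCm38.p6, 5′ to 3′ on the strand of the gene, with the run nearest that start in capitals. Rps12 and Rpl34 had the smallest p-values in cells, with Rplp2 and Rpl35a next, Rps24 and Rpl36a were highest in difference in tumors, and Rpl4 varied least between tumors.
Rps12, chr10:23787178-23787207, minus strand: cgccggCCTTTTCCCCTgccgccgccgact
Rpl34, chr3:130730331-130730360, minus strand: cacccgCCCCTTCCTTTTCCTCTTCCgggg
Rplp2, chr7:141447640-141447669, plus strand: tcagcgTCTTCCTTTCgccgccggacgccg
Rpl35a, chr16:33056471-33056500, plus strand: ggcttgCCTTCCTCTTTCCgccatcttggc
Rps24, chr14:24490669-24490698, plus strand: ctggggTCCTTCCTTgcgcgttgatatgat
Rpl36a, chrX:134585675-134585703, plus strand: ctctagCCTCTCTCTTTCCgagctgctag
Rpl4, chr9:64173363-64173392, plus strand: gacaagTCTTTCCTTTTCCTgtgggagcag
The printed runs are 11 bases in Rps12, 20 in Rpl34, 10 in Rplp2, 13 in Rpl35a, 9 in Rps24, 13 in Rpl36a and 14 in Rpl4. Counted from the annotated start, the first base of the run lay at -3 in Rps24, -5 in Rplp2, -17 in Rpl34, -18 in Rpl4, 8 in Rps12 and 27 in Rpl36a, and in Rpl35a at -37, -5 or 24 depending on which of 3 annotated starts is taken. Rps24 and Rpl34 each have another annotated start with a different run, not printed. That run is 19 bases long and begins at -37 in Rps24, and is 8 bases long and begins at -13 in Rpl34. Where transcripts start in these cells was not measured, so the capitals mark letters near a start and not tracts at the cap. A run of at least 8 pyrimidines on the sense strand lay within 50 bases of the start in 53 of the 63 genes with a RefSeq promoter (84.1%), against 39.3% of all 27025 genes with one. Among the 300 bases from 250 before the start to 50 after it, the ETS core CCGGAAG, on either strand, was present in 25 of the 63 (39.7%), against 9.93% of all genes. On the sense strand its reverse complement CTTCCGG overlaps pyrimidine runs, as at the end of the run printed for Rpl34. The TATA letters TATAAA were present in 7 genes (11.1%, against 15.7% of all) and the E-box CACGTG in 6 (9.52%, against 8.09%), both counted on either strand.

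Reads of this family may be hard to place. Coding lengths ran from 156 bases for Rpl39 to 1260 for Rpl4, with a median of 465 over the 84 genes with an annotated coding sequence. A match of at least 95% identity over at least 90% of the coding sequence lay elsewhere in the mouse genome for 77 of the 84, with 582 such copies in all, a median of 5 per gene and 55 for Rpl21. How the authors' counting split reads among genes and copies is not stated, so each level below is uncertain by that share. Values of Rps23, Rps3a and Rps4y2 in tumors and of Rpl41 in cells were not analysed here.

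Rnaseh2c was 26.9, 52.0 and 25.9 RPKM in scramble tumors and 10.2, 22.4 and 19.8 RPKM in sh4 tumors, and 5.83, 7.06 and 5.34 FPKM in scramble cells against 3.19, 5.36 and 4.28 FPKM in sh4 cells. In tumors the 3 sh4 values lay below the 3 scramble values, and in cells 1 sh4 value lay between the scramble values. The worth of 1 read, taken from low values, differed from that of scramble tumor 1 by -0.0791% to 0.159% in the other tumors, so relative depth was close to equal, while the read number of either table is unknown. Markers of other cell types differed between tumors. The summed level of 8 leukocyte genes was 1339 to 2079 RPKM in scramble and 1134 to 1633 RPKM in sh4 tumors, that of 6 epithelial genes 585 to 1104 and 414 to 744 RPKM, that of 5 adipocyte genes 23.6 to 1667 and 34.4 to 227 RPKM, and that of 6 fibroblast genes 455 to 1026 and 453 to 1196 RPKM. In cells the summed level of 6 epithelial genes was 438 to 552 FPKM, and the fibroblast, adipocyte and endothelial lists had 0 of 16 genes tested, with Lum, Lep and Emcn at 0 in every library. The summed level of the 8 leukocyte genes in cells was 12.9 to 16.6 FPKM, with 2 of 8 tested. That of 5 muscle genes was 0.874 to 1.23 FPKM, with 3 of 5 tested. In tumors, fewer cells of a type and less RNA per cell cannot be told apart.

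In tumors ribosomal protein genes filled the top of the table. A mean of 1000 RPKM or more was reached by 88 genes, of which 61 belonged to the family, as did 39 of the 50 highest genes and 7 of the 10 highest. The median level was 1940 RPKM over 30 small subunit genes and 1605 RPKM over 51 large subunit genes, against 4.84 RPKM over all genes tested. Rpl41, which encodes the smallest of these proteins, was highest with 6107, 8770 and 6190 RPKM in scramble and 5009, 12948 and 8130 RPKM in sh4 tumors. Below it came Rplp1, with scramble and sh4 means of 4109 ± 672 and 5576 ± 2161 RPKM (SD, n = 3 here and below), Rpl13a, with 3788 ± 1016 and 4956 ± 1975 RPKM, and Rpl12, with 3949 ± 467 and 4156 ± 761 RPKM. Rpl32, with 3740 ± 68.9 and 3763 ± 817 RPKM, and Rps14, with 3046 ± 653 and 3697 ± 820 RPKM, completed the 6 highest, and from Rplp1 to Rps14 the scramble values of neighbours in this order overlapped.

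At the low end stood mainly paralogs of the standard proteins. Rpl10l, a retrocopy of Rpl10 known from testis, was listed at 0 in every tumor. Rpl3l, the muscle form of Rpl3, was 0.521, 0.0145 and 0.0434 RPKM in scramble and 0.116, 0.116 and 0.232 RPKM in sh4 tumors, and was highest in scramble tumor 1, where the summed level of 5 muscle markers was also highest (62.1 RPKM, against 4.23 to 26.7 RPKM in the others). The part of muscle tissue in it was not tested. Rpl39l, another copy known from testis, was 1.09 to 3.67 RPKM over the 6 tumors. Rpl7l1, a relative of Rpl7 that acts in ribosome assembly, was 38.5 to 43.8 RPKM, and Rps27l, a p53 target related to Rps27, 193 to 296 RPKM. Rpl29, a standard protein of the large subunit, was among the 6 lowest with 149 to 201 RPKM.

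The family's share of all RPKM was 32.6, 34.8 and 32.1% in scramble tumors and 31.5, 42.2 and 36.5% in sh4 tumors. The means were 33.2 ± 1.42% and 36.7 ± 5.37%, a difference of 3.56 percentage points. Without sh4 tumor 2 the difference was 0.811 percentage points. The highest and the lowest share both belonged to sh4 tumors, and the scramble tumors lay between sh4 tumors 1 and 3. With Rpl41 left out, an alternative chosen after its level was seen, the shares were 30.6 to 32.9% and 30.3 to 39.6%.

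**Figure D1:**
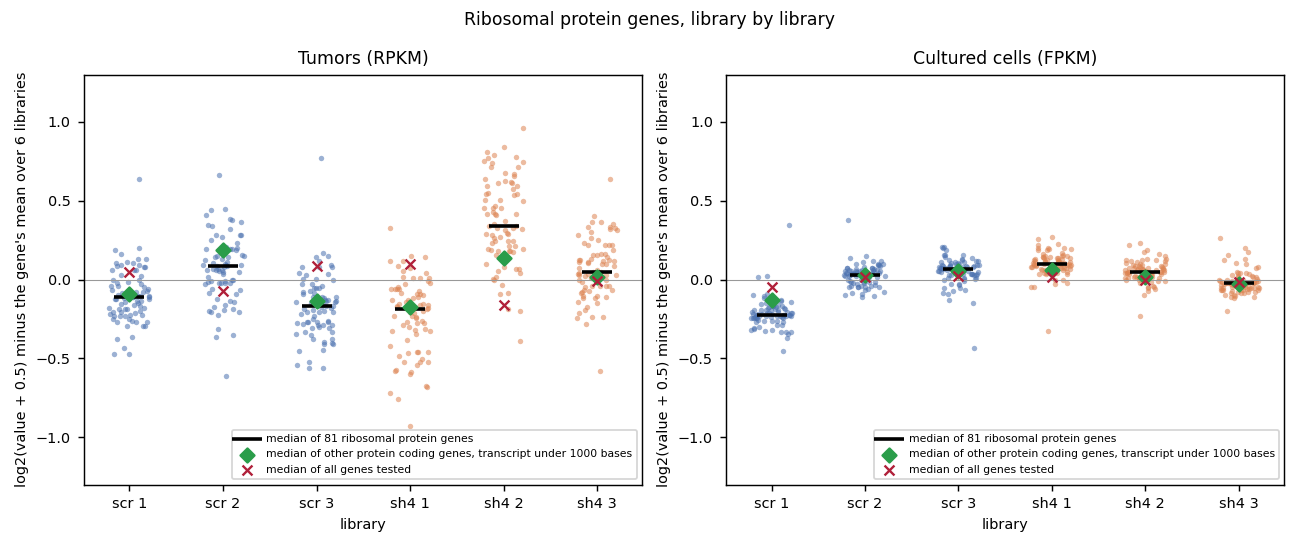
Deviation of each ribosomal protein gene from its own mean over 6 libraries, on the log2(value + 0.5) scale, for each tumor (left) and each plate of cells (right). Points are genes, the black bars their median, the diamonds the median of other protein coding genes with transcripts under 1000 bases and the crosses that of all genes tested; sh4 tumor 2 stands highest at 0.34 and scramble plate 1 lowest at -0.22.

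Library by library, most members deviated in the same direction. The median deviation from each gene's own mean was -0.11, 0.08 and -0.17 in scramble tumors 1, 2 and 3 and -0.19, 0.34 and 0.05 in sh4 tumors 1, 2 and 3, on the log2 scale. In sh4 tumor 2, 74 of 81 members stood above their mean and 60 had their highest value, while 31 had their lowest value in sh4 tumor 1. Other protein coding genes of at least 50 RPKM had their highest value in sh4 tumor 2 in 25.5% of 911 cases and their lowest in sh4 tumor 1 in 33.2%. The library medians of all genes went the other way, with -0.16 in sh4 tumor 2 and 0.10 in sh4 tumor 1. Those of 764 other protein coding genes with transcripts under 1000 bases had the sign of the members' medians in each tumor, with -0.09, 0.19 and -0.14 in scramble and -0.17, 0.13 and 0.01 in sh4 tumors. The 74 genes of the mitochondrial ribosome gave -0.14, 0.16 and -0.09 in scramble and -0.13, 0.12 and 0.05 in sh4 tumors. The index of short against long transcripts, the median deviation under 1000 bases minus that over 4000 bases, was -0.22, 0.37 and -0.30 in scramble and -0.40, 0.42 and 0.05 in sh4 tumors, and its order over the 6 tumors was that of the members' medians. With this index as a covariate the members' median difference was 0.08 in place of 0.12. The part of transcript length in the members' level was not tested beyond that fit. Among the cell type marker lists, the epithelial and leukocyte genes kept a fixed sign relation to the family, and the others did not. The medians of 6 epithelial genes were -0.05, 0.49 and -0.36 in scramble and -0.34, 0.22 and 0.11 in sh4 tumors, with the sign of the members' medians in each tumor. Those of 7 leukocyte genes, 0.35, -0.13 and 0.10 in scramble and 0.59, -0.39 and -0.07 in sh4 tumors, had the opposite sign in each. So did those of all genes tested, 0.05, -0.07 and 0.09 in scramble and 0.10, -0.16 and -0.01 in sh4 tumors. Neither relation was particular to a cell type list, since other short transcripts shared the epithelial sign and all genes tested the leukocyte sign. The fibroblast medians were 0.47, -0.75 and 0.03 in scramble and 0.12, -0.63 and 0.48 in sh4 tumors. For adipocyte genes they were -2.09, 3.05 and 0.61 in scramble and 0.77, -0.86 and -1.79 in sh4 tumors. These lists, and the endothelial and muscle lists, had the members' sign in some tumors and the opposite sign in others. The part of any cell type in the members' level was not tested.

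Within the family the spread between tumors was wide for short genes. The SD of log2(RPKM + 0.5) over the 6 tumors had a median of 0.26 over members, 0.29 over all genes tested and 0.28 over other protein coding genes of at least 50 RPKM. Over the 79 members with a coding sequence and a mean of at least 1 RPKM, the SD and the coding length had a Spearman rho of -0.44, given as a description since all points share the same 6 libraries. Its median was 0.36 over the 28 members with less than 400 coding bases and 0.20 over the 51 others, and in sh4 tumor 2 these groups stood at 0.56 and 0.29 above their own means. Rpl36 ranged from 891 RPKM in sh4 tumor 1 to 2697 RPKM in sh4 tumor 2, a 3.03-fold range. Rpl39, with Rpl39l the shortest of the annotated coding sequences, was 2343, 2190 and 1745 RPKM in scramble and 1434, 4471 and 2564 RPKM in sh4 tumors, a 3.12-fold range, and both its extremes were sh4 tumors. At the other end Rpl4, which lines the exit tunnel of the large subunit and has the longest coding sequence, was 1734, 1903 and 1716 RPKM in scramble and 1805, 1742 and 1800 RPKM in sh4 tumors, a 1.11-fold range. Rps6, the protein that S6 kinase phosphorylates, stayed between 1827 and 2187 RPKM, and Rps18 between 599 and 696 RPKM.

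**Figure D2:**
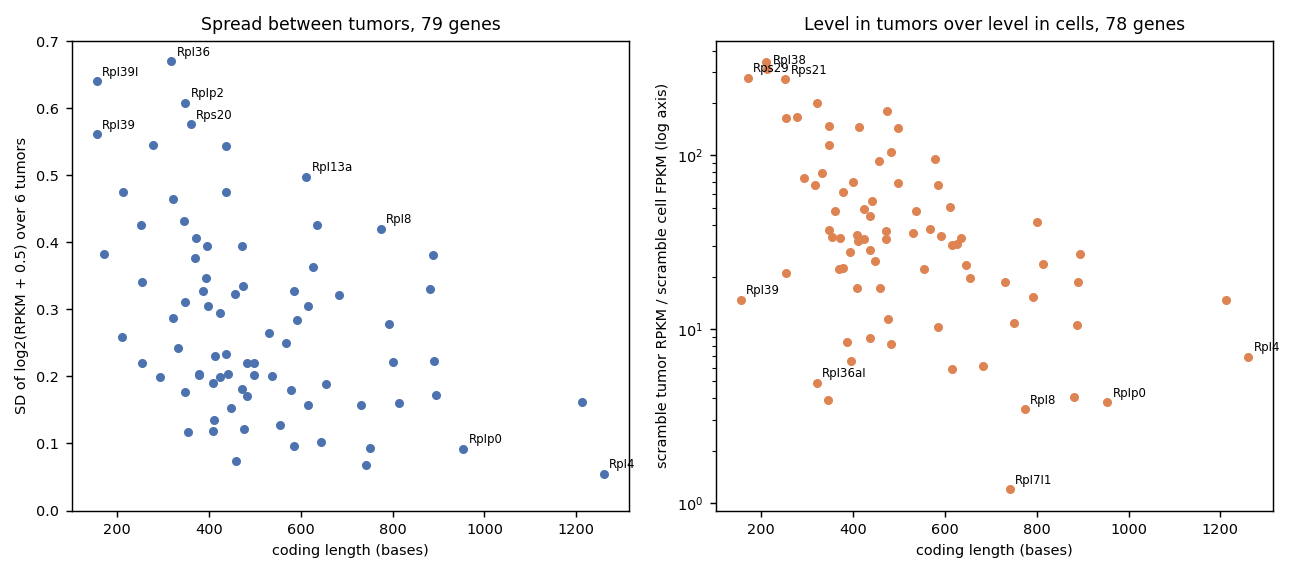
Left, spread between the 6 tumors (SD of log2(RPKM + 0.5)) against coding length for 79 ribosomal protein genes; right, mean level in scramble tumors over mean level in scramble cells, on a log axis, against coding length for 78 genes. Many short genes had a large spread (Rpl36, Rpl39, Rplp2) and many a large ratio (Rps28 at 344, Rpl38 at 313), while Rpl4 and Rplp0 were low in both.

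The first question was whether knockdown of Rnaseh2c changed the family in tumors. No member was called: 0 of 81 had an adjusted p under 0.05 by limma, where 0.0% of the 13487 genes tested were called. At an unadjusted p under 0.05 the count was 0 of 81 members, against 564 of 13487 genes (4.18%). The median log2 difference, sh4 minus scramble, was 0.12 over the members and -0.04 over all genes, and 65 of 81 members were positive, against 42.6% of all genes. The differences within experiments 1, 2 and 3 had medians of -0.12, 0.26 and 0.29. Without sh4 tumor 2 the median was -0.03 with 37 members positive, and without sh4 tumor 1 it was 0.25, so the sign of the median depended on sh4 tumor 2. Quantile normalization gave 0.03 with 48 positive, and median-ratio scaling 0.20 with 75 positive. The 3 sh4 values lay above the 3 scramble values for 4 members (4.19% of all genes did) and below them for 2 (4.98%).

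Rps24, a small subunit protein mutated in Diamond-Blackfan anemia, had the smallest p-value in tumors. Its level was 1083, 1226 and 1200 RPKM in scramble and 1285, 2248 and 1691 RPKM in sh4 tumors, with all sh4 tumors above all scramble tumors. The log2 difference was 0.54 with an SE of 0.25 (limma p = 0.061, adjusted p = 0.995), an exact two-sided permutation test gave p = 0.1, the smallest that 3 against 3 allows, and with the experiment as a block the limma p was 0.0344 (adjusted p = 0.714). Without sh4 tumor 2 the difference was 0.34. Rps24 lies on chr14:25309903-25315368 in NCBIM37, the mm9 assembly. Rpl36a, a large subunit protein, was 1984, 2105 and 1722 RPKM in scramble and 1834, 4091 and 2666 RPKM in sh4 tumors, with sh4 tumor 1 inside the scramble range and a log2 difference of 0.49 (SE 0.31, limma adjusted p = 0.995). Rpsa, a small subunit protein also known as the laminin receptor precursor, was 2288, 3379 and 2675 RPKM against 2810, 4795 and 3691 RPKM, higher in sh4 within each experiment by 0.30, 0.50 and 0.46 on the log2 scale though the groups overlapped. Rpl21 (0.30, SE 0.20) and Rpl7 (0.19, SE 0.21), both given as log2 differences with a limma adjusted p of 0.995, also had every sh4 tumor above every scramble tumor. Rpl21 has the most copies in the genome, and its 6 values lay between 1297 and 1963 RPKM.

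Lower values in sh4 tumors were few. Rpl29, a large subunit protein, was 188, 201 and 186 RPKM in scramble and 185, 155 and 149 RPKM in sh4 tumors, with every sh4 tumor below every scramble tumor, and its log2 difference was -0.24 (SE 0.16, limma adjusted p = 0.995). Rpl7a had a log2 difference of -0.25 (SE 0.20), Rpl23a, which lies at the exit tunnel of the large subunit, -0.20 (SE 0.21) and Rpl15 -0.18 (SE 0.17), all with overlapping groups and a limma adjusted p of 0.995. Rpl7a, Rpl23a and Rpl29 have 31, 19 and 28 near-identical copies each.

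The proteins of the P stalk, the arm of the large subunit that binds elongation factors, had unlike values. Rplp0, its base, was 1797, 1978 and 1911 RPKM in scramble and 1657, 1909 and 1909 RPKM in sh4 tumors (log2 difference -0.06, SE 0.19). Rplp1 was 3959, 4844 and 3525 RPKM against 3716, 7946 and 5067 RPKM (0.38, SE 0.33), and Rplp2 was 927, 1420 and 1055 RPKM against 761, 2147 and 1999 RPKM (0.41, SE 0.41). For both short acidic proteins sh4 tumor 2 was the highest of all 6, whereas for Rplp0 scramble tumor 2 was. Rpl5 and Rpl11, which bind the 5S RNA and, when free, Mdm2, gave 0.17 (SE 0.20) and 0.11 (SE 0.21). Of the 9 genes linked to Diamond-Blackfan anemia, 8 were positive and 0 had an unadjusted limma p under 0.05, with a median of 0.11. The small subunit genes had a median of 0.16 with 24 of 30 positive and the large subunit genes 0.11 with 41 of 51 positive.

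**Figure D3:**
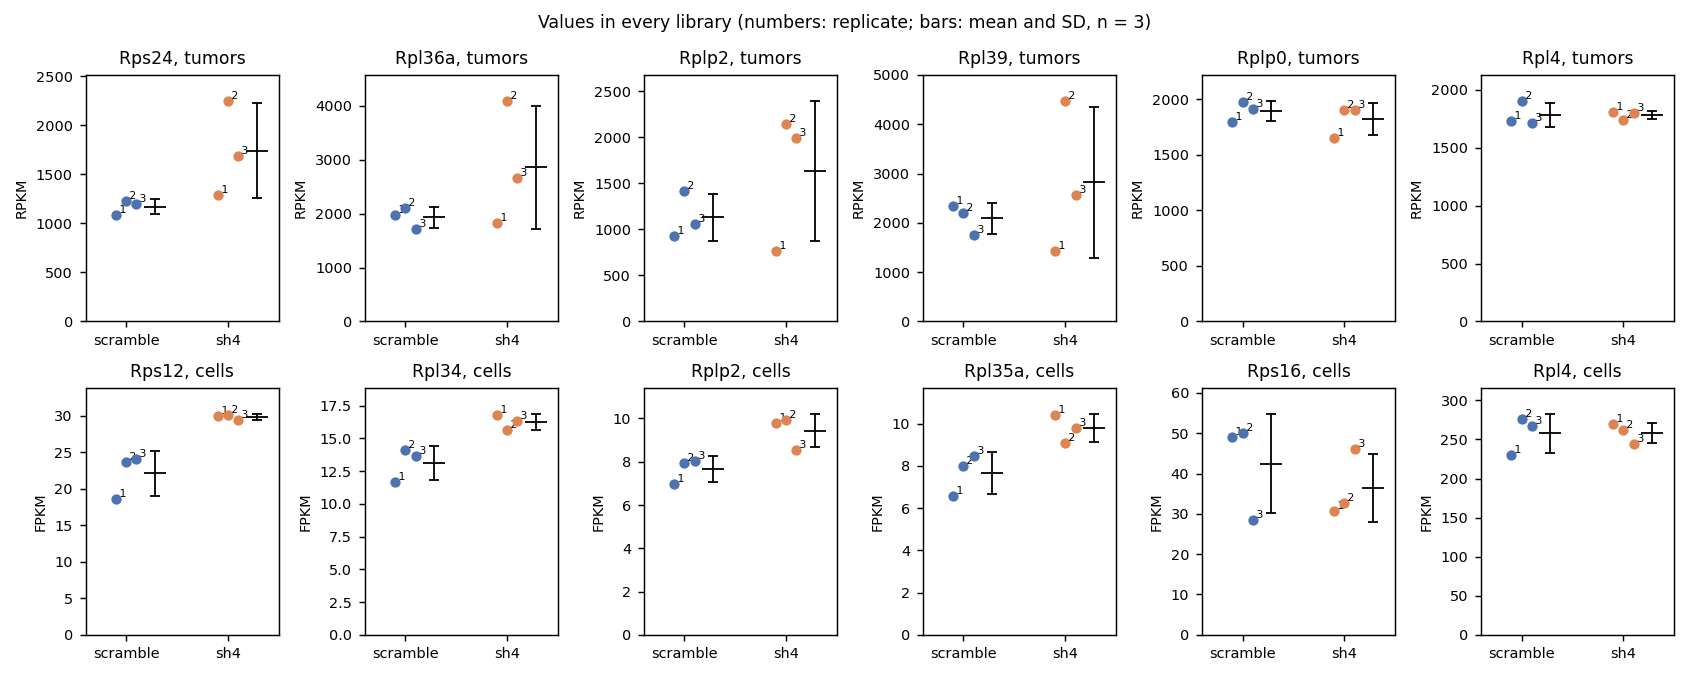
Values in every library for 6 genes in tumors (top, RPKM) and 6 in cells (bottom, FPKM), each axis from 0; dots are libraries with their replicate number, bars the mean and SD of 3. In tumors sh4 tumor 2 stands apart for Rps24, Rpl36a and Rpl39 and not for Rplp0 or Rpl4; in cells the 3 sh4 plates of Rps12 and Rpl34 stand above the scramble plates, and Rps16 splits across both groups.

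In cultured cells few members stood at the top of the table. The median level over the 81 members tested was 58.6 FPKM, against 2.32 FPKM over all genes tested. Rplp1 alone reached a mean of 1000 FPKM, 20 of 84 members had at least 100 FPKM and 1 was among the 50 highest genes. Together the members held 1.00, 0.988 and 0.970% of the FPKM of Ensembl genes in scramble and 1.04, 0.913 and 0.938% in sh4 plates, with means of 0.986 ± 0.0150% and 0.963 ± 0.0654%. The lowest and the highest share were both sh4 plates. These shares depend on what makes up the total. Of protein coding FPKM alone the members held 4.33 to 4.62% in scramble and 4.42 to 4.63% in sh4 plates. Of protein coding RPKM in tumors they held 32.9 to 35.5% in scramble and 32.4 to 43.2% in sh4. Rplp1 was 915, 1093 and 1131 FPKM in scramble and 1148, 1132 and 1051 FPKM in sh4 plates. Rplp0 followed with scramble and sh4 means of 500.3 ± 55.0 and 517 ± 29.0 FPKM, then Rpl8, with 419 ± 42.4 and 446 ± 16.9 FPKM, and Rpsa, with 265 ± 25.8 and 306 ± 16.4 FPKM. Next were Rps3a, with 264 ± 24.7 and 273 ± 20.7 FPKM, and Rps15, with 265 ± 27.5 and 260 ± 11.9 FPKM. In scramble plates Rpsa, Rps3a and Rps15 did not differ beyond their spread. Rpl10l, Rpl39l and Rps4y2 were listed at 0 in every plate, Rpl3l at 0.0827 to 0.176 FPKM, and Rps21 (3.77 to 5.60 FPKM), Rpl24 (5.19 to 5.96 FPKM) and Rpl38 (5.74 to 7.68 FPKM) stood lowest among the standard proteins.

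Scramble plate 1 was low for nearly all members. The median deviation was -0.22, 0.03 and 0.07 in scramble plates 1, 2 and 3 and 0.10, 0.05 and -0.02 in sh4 plates 1, 2 and 3, on the log2 scale. Of 81 members, 77 had their lowest value in scramble plate 1, as did 79.7% of 384 other protein coding genes of at least 50 FPKM. The 118 other short and high genes had a median of -0.20 in that plate, the 266 longer genes of at least 50 FPKM -0.19, the 74 mitochondrial ribosome genes -0.18 and all genes -0.05. The index of short against long transcripts was -0.12 there and -0.01 to 0.06 in the other plates. Differences over the members are given with and without that plate.

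No member was called in cells either. By limma 0 of 81 had an adjusted p under 0.05, where 1.28% of the 21106 genes tested were called, and the smallest adjusted p of a member was 0.105. The median log2 difference was 0.08 over the members and -0.00 over all genes, and 71 of 81 were positive, against 49.6% of all genes. Other protein coding genes of at least 50 FPKM had a like shift. Of those with transcripts under 1000 bases 85 of 118 were positive, and of the longer ones 195 of 266, each with a median of 0.09. Without scramble plate 1 the members' median was -0.02 with 34 positive. Quantile normalization gave -0.01 with 36 positive and the length index as a covariate -0.01 with 37 positive, so the sign of the median depended on that plate and on the scaling. At an unadjusted p under 0.05, 9 of 81 members were higher in sh4, against 9.55% of all genes, and 0 were lower, against 9.33%. All sh4 plates lay above all scramble plates for 11 members (13.6% of all genes did) and below them for 0 (13.8%). In the higher direction the members' shares are close to those of all genes, and in the lower direction they are below them. For the 118 short and 266 longer other genes of at least 50 FPKM, all sh4 plates lay above all scramble plates in 23 and 82. They lay below them in 4 and 15.

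**Figure D4:**
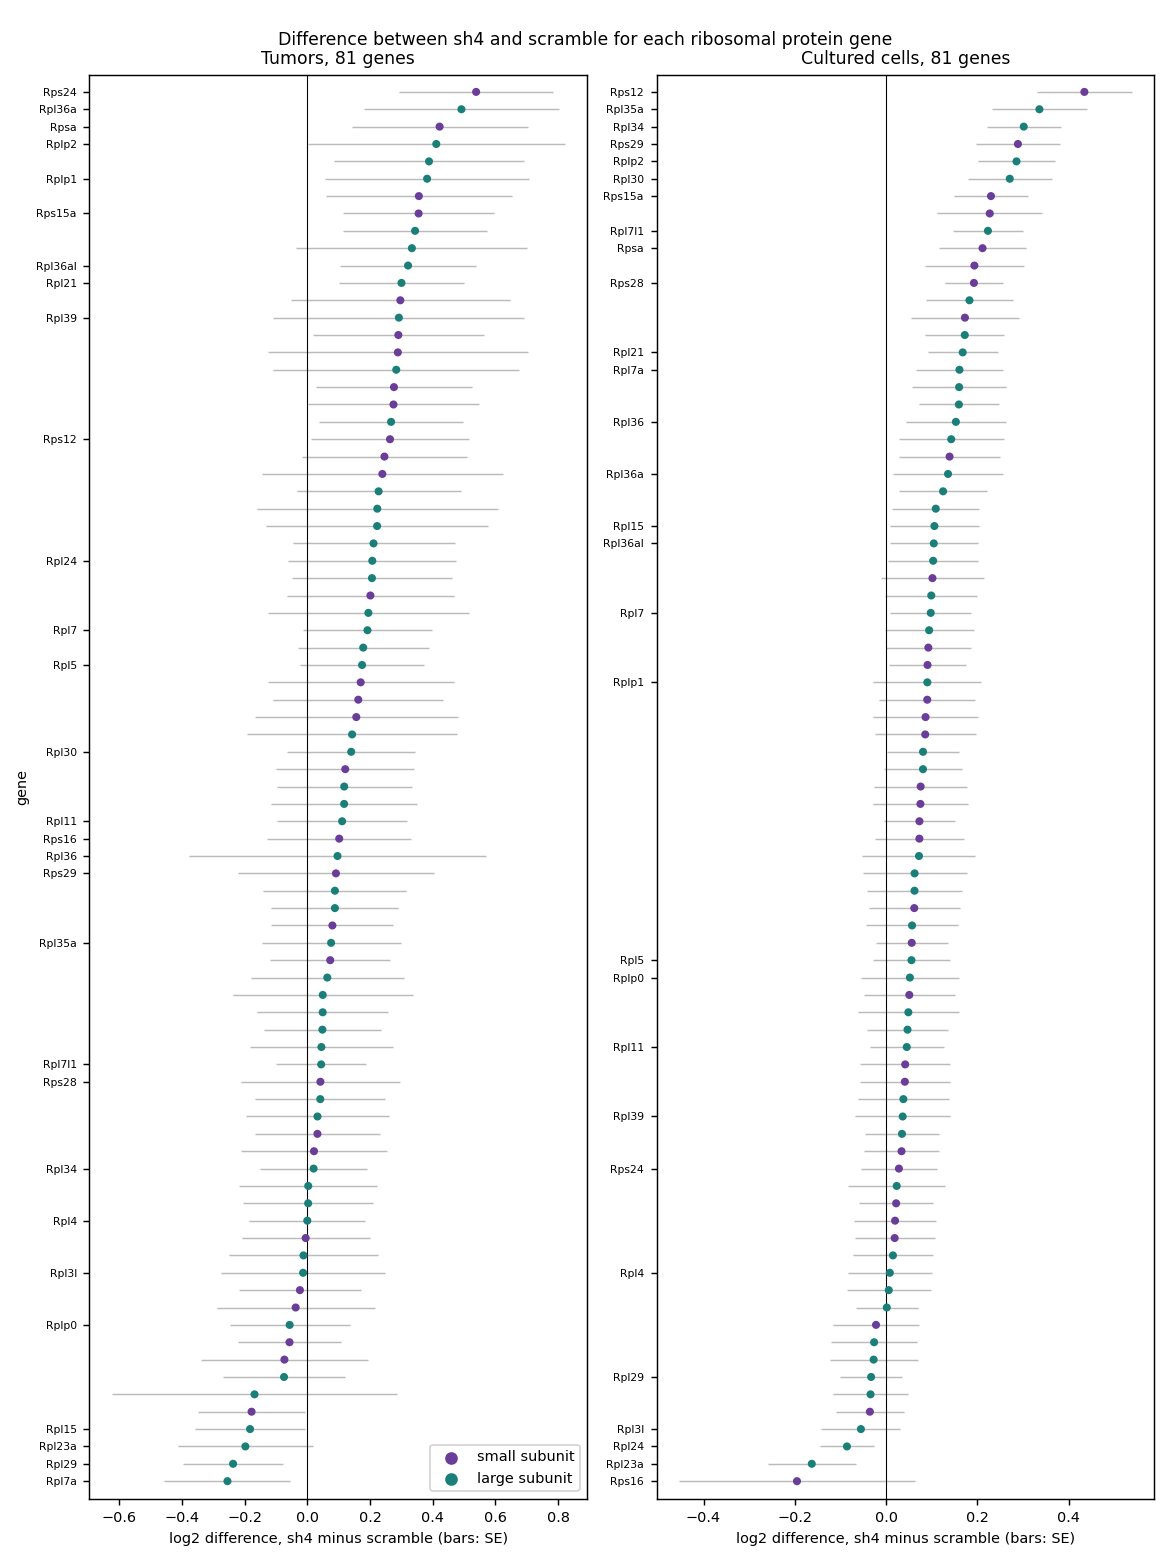
Log2 difference, sh4 minus scramble, of each ribosomal protein gene with its SE from limma, in tumors (left) and cells (right), ordered by size, with labels for part of the genes, small subunit genes in purple and large subunit genes in green. Rps24 stands highest and Rpl7a lowest in tumors, Rps12 highest and Rps16 lowest in cells, and none passed an adjusted p of 0.05.

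Rps12, a small subunit protein that in Drosophila takes part in cell competition, had the smallest p-value in cells. Its level was 18.5, 23.6 and 24.1 FPKM in scramble and 29.9, 30.1 and 29.4 FPKM in sh4 plates, and the lowest sh4 plate stood above the highest scramble plate. The log2 difference was 0.43 with an SE of 0.10 (limma p = 0.00509, adjusted p = 0.105), and an exact two-sided permutation test gave p = 0.1, the smallest possible. Without scramble plate 1 the difference was 0.32 with an SE of 0.03 and an adjusted p of 0.0389, and it was also called after quantile normalization (0.36, adjusted p = 0.0287), median-ratio scaling (0.41, adjusted p = 0.0314) and with the length index as a covariate (0.34, adjusted p = 0.0325), all by limma. In tumors Rps12 was 1519, 1665 and 1453 RPKM in scramble and 1398, 2475 and 1839 RPKM in sh4 (log2 difference 0.26, SE 0.25, limma adjusted p = 0.995), with overlapping groups. The gene lies on chr10:23504990-23507015 in NCBIM37 and has 22 near-identical copies in the genome.

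Rpl34, a large subunit protein, was 11.7, 14.1 and 13.6 FPKM in scramble and 16.8, 15.6 and 16.3 FPKM in sh4 plates, with a log2 difference of 0.30 (SE 0.08, limma adjusted p = 0.128). It was called after quantile normalization (0.25, limma adjusted p = 0.0363) and median-ratio scaling (0.28, limma adjusted p = 0.0348). In tumors Rpl34 differed by 0.02 (SE 0.17). Rplp2 was 6.97, 7.95 and 8.04 FPKM against 9.81, 9.94 and 8.56 FPKM (0.29, SE 0.08), while its stalk partners Rplp0 and Rplp1 gave 0.05 (SE 0.11) and 0.09 (SE 0.12). Rpl35a, another Diamond-Blackfan gene, was 6.56, 8.01 and 8.48 FPKM against 10.4, 9.11 and 9.81 FPKM (0.34, SE 0.10). Rps29, Rps28, Rpl30, Rpl7l1 and Rps15a made up the 9 with an unadjusted p under 0.05, with log2 differences of 0.19 to 0.29, limma adjusted p-values of 0.179 to 0.206 and every sh4 plate above every scramble plate. Rps29 was also called with the length index as a covariate (0.20, limma adjusted p = 0.0476), and Rpl7l1 after quantile normalization (0.15, adjusted p = 0.0493) and median-ratio scaling (0.20, adjusted p = 0.0463). The 27 members with less than 400 coding bases had a median difference of 0.10 against 0.06 for the 53 others.

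Among the lower members, Rpl23a was 74.1, 87.8 and 90.3 FPKM in scramble and 79.02, 76.7 and 68.9 FPKM in sh4 plates. Scramble plate 1 fell inside the sh4 range, and the log2 difference was -0.16 (SE 0.10, limma adjusted p = 0.408). Under quantile normalization it was -0.25 (limma adjusted p = 0.0281) and with the length index -0.25 (limma adjusted p = 0.0275). Rpl24 gave -0.09 (SE 0.06), Rpl29 -0.03 (SE 0.07) and Rpl3l -0.06 (SE 0.09). Rps16, a small subunit protein, had the widest spread of all members tested in cells, with an SD of 0.37 on the log2 scale. Its level was 49.0, 50.1 and 28.4 FPKM in scramble and 30.6, 32.7 and 46.2 FPKM in sh4 plates, and the high values of 46.2 to 50.1 FPKM and the low ones of 28.4 to 32.7 FPKM were each found in both groups. Its log2 difference was -0.20 (SE 0.26), and no other member had its lowest value in scramble plate 3. In tumors Rps16 ranged over 1.40-fold only. Rpl5 and Rpl11 gave 0.06 (SE 0.08) and 0.05 (SE 0.08) in cells. All 9 Diamond-Blackfan genes were positive with a median of 0.06, as were 71 of the 81 members tested. The library medians of the 9 were -0.21, 0.04 and 0.06 in scramble and 0.10, 0.05 and -0.03 in sh4 plates, so scramble plate 1 was lowest here too.

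A single gene, Rpl21, had non-overlapping groups in the same direction in both tables, and none had them in opposite directions. Rpl21 was 11.6, 13.4 and 13.2 FPKM in scramble and 15.5, 13.9 and 13.7 FPKM in sh4 plates (log2 difference 0.17, SE 0.08, limma adjusted p = 0.303). With 4 such genes in tumors and 11 in cells, among 81 genes each, this overlap was not tested.

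Most pairs of a standard protein and its paralog had unequal levels. Values overlapped for Rps27 and Rps27l in cells and for Rpl22 and Rpl22l1 in scramble tumors. Rpl36al, a close paralog of Rpl36a, was 539 ± 82.5 RPKM in scramble tumors against 1937 ± 195 RPKM for Rpl36a, whereas in scramble cells it was 109 ± 11.01 FPKM against 9.66 ± 1.53 FPKM, so the order was the reverse. Their coding sequences are both 321 bases long, and reads may be shared between them. Rpl22l1 was 334 ± 63.7 RPKM against 501 ± 146 RPKM for Rpl22 in scramble tumors, and 15.1 ± 2.43 FPKM against 59.4 ± 6.48 FPKM in scramble cells. Rps27l was 247 ± 51.9 RPKM against 2142 ± 161 RPKM for Rps27 in scramble tumors, and in scramble cells the values were 11.8 ± 1.29 and 13.1 ± 1.86 FPKM. Rpl7l1 was 40.8 ± 2.38 RPKM against 2331 ± 25.9 RPKM for Rpl7 in scramble tumors, and 34.0 ± 3.15 FPKM against 98.9 ± 8.30 FPKM in scramble cells. In tumors Rpl7l1 differed between groups by 0.04 (SE 0.14). Rpl3l was 0.136 ± 0.0370 FPKM against 94.4 ± 7.73 FPKM for Rpl3 in scramble cells, and Rpl39l was 2.29 ± 1.296 RPKM against 2093 ± 310.5 RPKM for Rpl39 in scramble tumors.

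The levels of tumors and cells can only be set side by side, since the tables were scaled separately and from different RNA. Over the 78 members of at least 1 in both, the scramble tumor mean over the scramble cell mean had a median of 32.9, from 1.20 for Rpl7l1 to 344 for Rps28. Over 8324 other protein coding genes the median was 1.40, and over the 397 of them with transcripts under 1000 bases it was 4.27. Within the family the ratio was lower for longer genes (Spearman rho -0.48 over 78 genes that share the same libraries). Its median was 165 for the 9 members with less than 300 coding bases and 16.9 for the 22 with at least 600. Rps28, Rpl38, Rps29 and Rps21 had ratios of 344, 313, 280 and 275, and Rpl8, Rplp0 and Rps2 of 3.46, 3.79 and 4.08. Several short genes were exceptions. Rpl39 had 142 ± 17.2 FPKM in scramble cells and a ratio of 14.8. Rplp1, Rpl36al, Rps24 and Rpl22, all under 400 coding bases, had ratios of 3.93, 4.92, 6.53 and 8.44. The ratio and the number of near-identical copies had a rho of 0.12. In cells the level and the coding length had a rho of 0.53, in tumors of 0.03.

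Within the bounds of these genes, 4 small nucleolar RNA genes rose in sh4 cells. On the same strand within 30 members lie 58 snoRNA genes in the annotation, of which 53 were tested in cells. By limma 4 of 53 were called higher and 0 lower, where 1.28% of all genes were called, and 20 were higher and 1 lower at an unadjusted p under 0.05, against 9.55% and 9.33% of all genes. Their median log2 difference was 0.28 with 49 positive, and that of the 30 hosts 0.06. The calls depended on single plates, with 0 to 1 called when any 1 plate was left out (1 without scramble plate 1), while the median stayed between 0.22 and 0.32. The library medians of the 53 were -0.27, -0.12 and -0.02 in scramble and 0.20, 0.15 and 0.10 in sh4 plates, all sh4 plates above all scramble plates, which was not so for the ribosomal protein genes. Reads of an unspliced host intron and of the snoRNA itself cannot be told apart. Snora33 in Rps12 was 15.5, 14.8 and 13.9 FPKM in scramble and 22.02, 21.4 and 21.8 FPKM in sh4 plates (log2 difference 0.55, SE 0.06, limma adjusted p = 0.0218), and the other snoRNAs of Rps12, SNORD101 and Snord100, gave 0.41 (SE 0.10) and 0.37 (SE 0.13), beside 0.43 for Rps12. A SNORA66 gene in Rpl5 was 8.39, 9.47 and 10.5 FPKM against 20.7, 15.4 and 20.9 FPKM (0.96, SE 0.14, limma adjusted p = 0.0419), while Rpl5 itself gave 0.06. A SNORA62 gene in Rpsa was 27.9, 33.6 and 27.9 FPKM against 49.1, 42.3 and 50.3 FPKM (0.66, SE 0.10, limma adjusted p = 0.0481), against 0.21 for Rpsa. 1 of 3 genes named SNORD18 in Rpl4 was 12.9, 12.3 and 12.9 FPKM against 18.4, 16.1 and 18.8 FPKM (0.46, SE 0.07, limma adjusted p = 0.0453), against 0.01 for Rpl4. In tumors 26 snoRNA genes of the family were tested, with 0 called, 2 higher at an unadjusted p under 0.05, a median of 0.29 and 22 positive. Of all genes in tumors 4.18% had such a p in either direction and 42.6% were positive.

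**Figure D5:**
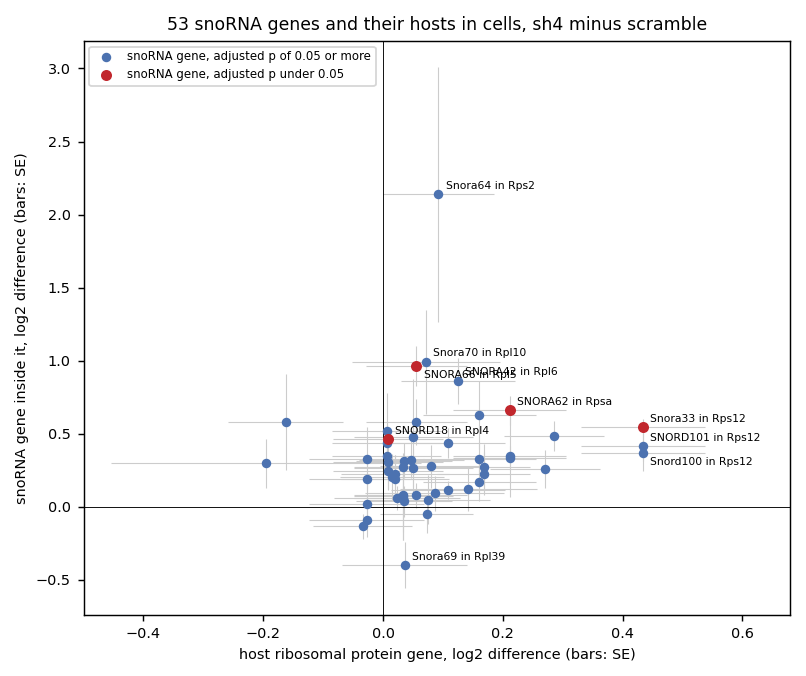
Log2 difference, sh4 minus scramble, in cells for 53 snoRNA genes (vertical) against that of the ribosomal protein gene they lie in (horizontal), with SE bars from limma. The 4 snoRNA genes called are in red; most snoRNA genes lie above 0 while their hosts lie near 0, and the snoRNAs of Rps12 lie beside the highest host.

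Genes that build ribosomes were counted next. Of 24 ribosome assembly and nucleolar genes, 16 had an unadjusted limma p below 0.05 with a higher value in sh4 cells (9.55% of all genes did), 23 were positive with a median of 0.24, and 0 were called. Without scramble plate 1 the count was 14, with 23 positive and a median of 0.19. Quantile normalization and median-ratio scaling each called 9 of the 24, and the length index called 6. Over the whole cell table these settings called 1223, 1230 and 1133 genes, in that order, against 270 in the main fit. Their library medians were -0.24, -0.05 and -0.04 in scramble and 0.18, 0.10 and 0.09 in sh4 plates. The difference between this list and the family was not tested. Nolc1, a nucleolar phosphoprotein that binds snoRNPs, was 20.1, 22.7 and 21.9 FPKM in scramble and 28.6, 26.6 and 26.4 FPKM in sh4 plates (log2 difference 0.33, SE 0.07, limma adjusted p = 0.0759). Nop2, an rRNA methyltransferase, gave 0.37 (SE 0.08) and Gnl3, nucleostemin, 0.34 (SE 0.08). In tumors 19 of these 24 were positive with a median of 0.15, and 3 had an unadjusted p under 0.05, Nop56 (0.48, SE 0.19), Ncl (0.45, SE 0.18) and Nolc1 (0.47, SE 0.19), each higher in every sh4 tumor. Of 6 chaperones of single ribosomal proteins, 6 were positive in cells, led by Grwd1, which escorts Rpl3 (0.32, SE 0.09), and Tsr2, which in yeast escorts Rps26 (0.19, SE 0.06), and 4 of 6 were positive in tumors.

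Translation factors and the mitochondrial ribosome were counted in the same way. Of 18 genes, mostly translation factors, that are known for mRNAs with the same tract, 2 had an unadjusted limma p below 0.05 with a higher value in sh4 cells, against 9.55% of all genes. These were Npm1, nucleophosmin, a nucleolar chaperone (0.28, SE 0.09), and Eef1g, an elongation factor subunit (0.24, SE 0.08). The list's median was 0.07 in cells and 0.06 in tumors, where 0 of 18 had such a p. Eef1a1, the main elongation factor, was 2593, 3099 and 3162 FPKM in scramble and 3135, 3052 and 2828 FPKM in sh4 plates, so it too was lowest in scramble plate 1. Fau, which encodes a ribosomal protein fused to a ubiquitin-like part and falls outside the choice by symbol, gave 0.22 (SE 0.39) in tumors and -0.07 (SE 0.09) in cells. Among 74 mitochondrial ribosome genes 7 were higher and 2 lower at an unadjusted p under 0.05 in cells, against 9.55% and 9.33% of all genes, with a median of 0.08, and 0 in tumors, with a median of 0.02. Of 14 genes of the mTOR, Larp1 and Myc control, Eif4e (0.31, SE 0.07) and Max (0.24, SE 0.06) were higher at an unadjusted p under 0.05 in cells, against 9.55% of all genes, and 0 in tumors, and none was called. Myc itself gave 0.18 (SE 0.07, limma adjusted p = 0.265) in cells and 0.15 (SE 0.37) in tumors.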

How the data were processed

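Tumor mRNA was sequenced on a HiSeq2500 and aligned with Tophat to the mm9 genome, and the deposited values are RPKM from the Partek suite, with the counting program not given in the sources used here. For total RNA of cells the authors deposited FPKM of Ensembl genes and assembled loci, with no program given for these values. The submitters' processing notes name TopHat2 2.1.0, STAR 2.7, Bowtie, BWA and GATK without roles. The exome libraries of metastases were not used here. In cells 239874 assembled loci (46.2 to 52.6% of all FPKM) were left out, and 32709 of 50667 Ensembl IDs matched a symbol. All sample columns were used.

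Values were taken as log2(value + 0.5), which understates changes of low genes. Genes with a mean of at least 0.1 were fitted with limma 3.58.1 (R 4.3.3, variance trend) on each whole table, with Benjamini-Hochberg adjustment and a threshold of 0.05. Members, gene lists and naming rules were chosen with earlier results of these data known. Named were the 6 highest and 6 lowest members, 5 with the smallest p in each direction, paralogs with partners, the stalk, Rpsa, Rpl5, Rpl11, Fau and up to 3 genes per list, though some of these are not reported here. Others, such as Rpl39, Rpl36, Rps6, Rps18, Rpl7 and the snoRNAs, were named after their values were seen. Coding length, copies (BLAST 2.17.0) and snoRNA positions came from GENCODE vM1 on NCBIM37, and promoters from RefSeq, matching 63 of 85 members. Counts of snoRNA and assembly genes under each setting, and the share without Rpl41, were added after the data were seen. Alternatives were other pseudocounts, filters, scalings, covariates, member sets and left-out libraries. The fit was tested on simulated data.

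Experiment numbers pair the tumors by label. The deviations of same-numbered tumors correlated at 0.138, 0.330 and -0.117 over all genes, and those of differently numbered tumors at -0.298 to 0.293. Plate numbers pair nothing stated (-0.061, -0.075 and -0.073), so cells were not paired.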

Additional observations from a re-analysis of the deposited data

How the results depend on the processing

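No alternative called a member in tumors, and the median difference changed sign only without sh4 tumor 2 (range without 1 library -0.03 to 0.25). In cells the count of 0 became 4 under quantile normalization (3 higher, 1 lower), 3 under median-ratio scaling (3 higher), 3 with the transcript length index as a covariate (2 higher, 1 lower) and 0 to 1 without 1 library, and the median ranged from -0.02 to 0.14 without 1 library. The genes called over the whole cell table went from 270 to 1223, 1230 and 1133 under the first 3 settings, and the cause was not tested. Rpl29 in cells, at -0.0329, ranged from -0.0911 to 0.00761 without 1 library and had the other sign without scramble plate 3. The cell share of FPKM differed by -0.0232 percentage points, by 0.0253 when protein coding genes alone made up the total, and by -0.0602 to 0.00161 without 1 library, and the tumor share by 0.811 to 6.18. The 4 snoRNA calls became 8 under quantile normalization and 8 under median-ratio scaling, 1 without limma's trend and 0 without a filter on low values. With the replicate block the tumor count stayed at 0, with 1 member, Rps24, at an unadjusted p under 0.05. Plate numbers share nothing stated, and a replicate block on them gave 0 genes called in cells, with 5 members at an unadjusted p under 0.05. The block changed no other call. Read numbers are unknown, so no counting limit can be given, and 3 libraries per group limit precision.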

Other observations

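Snora64, inside Rps2, was 14.6, 183 and 24.6 FPKM in scramble and 191, 173 and 178 FPKM in sh4 plates, so scramble plate 2 stood with the sh4 plates (log2 difference 2.14, SE 0.87, limma adjusted p = 0.259). Snora69, inside Rpl39, was 58.7, 59.0 and 71.7 FPKM in scramble and 58.5, 39.0 and 46.8 FPKM in sh4 plates, and was the snoRNA gene of the family with an unadjusted limma p under 0.05 in the lower direction (-0.40, SE 0.16, adjusted p = 0.245). In tumors the same Snora69 was 3.08, 1.85 and 2.78 RPKM in scramble and 5.24, 5.25 and 4.01 RPKM in sh4 (0.81, SE 0.24, limma adjusted p = 0.995). Snord35a, inside Rpl13a, was 10.6, 16.5 and 15.6 RPKM in scramble and 22.8, 25.4 and 33.9 RPKM in sh4 tumors (0.92, SE 0.24, limma adjusted p = 0.991). All were chosen after their values were seen.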
